A study of Mus musculus with 6 samples.

Results

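Circular RNAs (circRNAs) from genes that give several circles were described in mouse primary visual cortex (V1). A circRNA was included when its host gene had 3 or more circRNAs on the same strand, with unannotated hosts and the mitochondrial chromosome left out. The rule took 456 of 1488 circRNAs. They came from 108 host entries, which held 105 genes because 3 genes each stood under 2 entries, and 10 entries named more than 1 overlapping gene. Protein-coding genes made up 106 of the 108 entries. The rule used the number of circles, which is therefore no finding.

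Of the C57BL/6J strain and wild type, the 3 mice were 28 days old when V1 was dissected, and a suture had kept their right eye shut for the last 3 days. V1 of the left hemisphere, contralateral to the sutured eye, and V1 of the right hemisphere, ipsilateral to it, gave 1 total RNA library each per mouse, so 3 contralateral and 3 ipsilateral libraries. All 6 libraries came from deprived mice and none from a mouse with both eyes open, so the ipsilateral hemisphere is the only comparison. The series' title names experience-dependent plasticity as its subject, and the comparison asks which circRNAs differ between the hemispheres after closure of one eye. In bulk tissue, fewer cells of a type and less RNA per cell cannot be told apart.

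A circRNA forms when the spliceosome joins the 3′ end of an exon (the donor) back to the 5′ end of an exon upstream of it (the acceptor). The join is the back-splice junction, and a read across it is the count used here. Back-splicing usually involves exons inside a gene, competes with linear splicing, and is helped by complementary repeats in the introns on both sides. Circles have no free ends, resist exonucleases, and are abundant in the brain, where many come from synaptic genes. A gene with several donors or acceptors that take part in back-splicing gives several circles, a pattern known as alternative circularization.

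Depth ran from 17849253 to 32213500 reads in genes per library, with 13428 to 26867 reads across back-splices, the most in ipsilateral 2. The mitochondrial rRNA gene mt-Rnr1 split the libraries into a low and a high set, each with both hemispheres but not in equal number. Contralateral 1, ipsilateral 1 and ipsilateral 3 had 14.5 to 35.9 CPM (reads scaled to the library's total in genes). Contralateral 2, contralateral 3 and ipsilateral 2 had 2243 to 5801 CPM. Hemisphere and mt-Rnr1 set were therefore partly confounded in each comparison of all 6 libraries. Back-splice reads on that scale also separated these sets, at 666 to 771 CPM in the low and 834 to 970 CPM in the high libraries. Neuronal markers were present in every library, and their summed level was 3205 to 4544 CPM in contralateral and 4709 to 4874 CPM in ipsilateral libraries, without overlap. The summed levels of astrocyte, oligodendrocyte, oligodendrocyte precursor, microglia, meningeal and blood markers overlapped between hemispheres, as did those of endothelial and mural cells. No marker gene passed edgeR's quasi-likelihood test, and the part of these levels in the results was not tested.

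The junctions below show how circles of 1 host are related. Each runs 5′ to 3′ across the join, with the last 15 bases of the donor exon in lower case and the first 15 bases of the acceptor exon in capitals. The bases are from GENCODE M21 transcripts (GRCm38), on the strand of the gene. Kcnt2 encodes a sodium-activated potassium channel, and its 3 leading circles share the acceptor of exon 4 at chr1:140362949 on the plus strand.
Kcnt2-1, exons 4 to 13: acatcaaatttgcagGTCTCACATATTTTG
Kcnt2-2, exons 4 to 8: ccttatcttcacttgGTCTCACATATTTTG
Kcnt2-3, exons 4 to 14: tacctctagagggcaGTCTCACATATTTTG
Kcnt2-4, exons 9 to 13: acatcaaatttgcagCATTTGTGGGATTCA
The first and last of these share the donor of exon 13. Stk39 encodes a kinase that controls cation-chloride cotransporters, and 4 of its 8 circles start at exon 2, with the shared acceptor at chr2:68410141 on the minus strand.
Stk39-1, exons 2 to 5: cagtacaaatagcagGCAGCGGAGCAACTG
Stk39-2, exons 2 to 10: caaagagccaagaagGCAGCGGAGCAACTG
Stk39-4, exons 2 to 16: atgatgtagttatagGCAGCGGAGCAACTG
Stk39-5, exons 2 to 14: tgttttaagattaagGCAGCGGAGCAACTG
Glcci1, a glucocorticoid-induced gene, gave 4 circles, each from exon 2 at chr6:8537817 on the plus strand.
Glcci1-1, exons 2 to 6: atgatcgtgataaagTGGACAGGCCAAAAT
Glcci1-2, exons 2 to 5: gaagaagtgtccaagTGGACAGGCCAAAAT
Glcci1-3, exons 2 to 4: atcagtcatactcagTGGACAGGCCAAAAT
Glcci1-4, exons 2 to 7: ctttgaggaaatggcTGGACAGGCCAAAAT
The converse is seen in Anks1b, which encodes a postsynaptic density protein. Its 3 circles below end at the donor of exon 8 at chr10:90077142 and differ in the acceptor.
Anks1b-1, exons 5 to 8: ggaagccagagtgtaACAGAAAAGGGGAGT
Anks1b-2, exons 4 to 8: ggaagccagagtgtaAACAACGAGAACGAA
Anks1b-5, exons 3 to 8: ggaagccagagtgtaGGACATAGTTCTCAA
Circles are numbered within a host by their reads over the 6 libraries, and exon numbers are those of the annotated transcript to which each circle was matched.

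The number of circles per host fell off quickly. Of the 108 hosts, 52 had 3 circles, 24 had 4, 14 had 5, 6 had 6, 4 had 7, 6 had 8, 1 had 9 (Anks1b) and 1 had 13 (the noncoding RNA Malat1). Another 152 hosts had 2 circles and 685 had 1. Hosts were counted as entries, which splits a gene that stands under 2 of them. R3hdm1 had 6 circles by itself and 4 in an entry with Mir128-1. With reads summed over the 6 libraries, the median host with 3 or more circles had 244.5 back-splice reads, against 80 with 2 circles and 33 with 1. These sums grow with the number of circles by construction. The median circle had 40, 34 and 33 reads summed in the same way, which was 6.67, 5.67 and 5.5 reads per library. At the edge of the rule, the 3-circle hosts with the most reads were Rasa2 with 773, Zfp148 with 758 and Slc8a1 with 736. The 2-circle hosts with the most were Dtnb with 667, Tcf20 with 615 and Ankib1 with 594.

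Together the 456 circRNAs took 33.8% of all nuclear back-splice reads, 36557 in number. Their share was 31.8%, 34.3% and 35.0% in contralateral 1, 2 and 3 and 31.9%, 35.1% and 33.0% in ipsilateral 1, 2 and 3. The hemispheres overlapped, whereas the libraries of low mt-Rnr1 (31.8% to 33.0%) all lay below those of high (34.3% to 35.1%). The part of mt-Rnr1 in this share was not tested. The means were 33.7% ± 1.72 (SD, n = 3) and 33.3% ± 1.63 (SD, n = 3), with an exact permutation p of 1.0 (two-sided, smallest possible 0.1).

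Circles of 1 host often shared an end, and more often the acceptor than the donor. Among the 896 pairs of circles within a host, 265 (29.6%) shared the acceptor, 121 (13.5%) the donor, 74 (8.26%) were nested with neither end shared, 126 (14.1%) overlapped in part and 310 (34.6%) did not overlap. Malat1, whose calls lack splice-site bases (below), gave 10 of the nested, 28 of the overlapping and 40 of the other pairs without overlap. The calls of Gm5815, which are uncertain (below), all share their start and are counted as sharing an acceptor. At least 2 circles shared an end in 101 of 108 hosts. An acceptor was shared in 91 hosts and a donor in 60, and an acceptor served 3 or more circles in 45 hosts against 16 for a donor. All circles used the same acceptor in 19 hosts and the same donor in 1. In hosts with exactly 2 circles, 64 of 152 pairs shared the acceptor and 35 the donor, the same order.

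Agtpbp1, a gene for a tubulin deglutamylase, had the acceptor of exon 2 in common to 6 of its 7 circles. These ended at exon 8, 11, 13, 17, 22 or 25, with 29, 60, 44, 63, 22 and 21 reads, and the other circle joined exons 7 to 17 with 28 reads. Stk39 combined 3 acceptors, at exons 2, 9 and 11, with 4 donors, at exons 5, 10, 14 and 16, into its 8 circles. Arhgap10, a GTPase-activating protein, and Dgki, a diacylglycerol kinase, also had 8 circles each, with starts at several exons.

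Both ends lay on annotated exon ends of 1 transcript for 405 of the 456 circRNAs (88.8%), against 871 of 989 (88.1%) from hosts with 1 or 2 circles. The placed circles spanned a median of 5 exons (quartiles 3 and 7, maximum 37), against 4 (3 and 5, maximum 36) in the other hosts. Single-exon circles were 14 (3.46%) against 8.27%, circles of 2 to 5 exons 58.5% against 69.0%, and circles of more than 10 exons 7.65% against 4.71%. The median spliced length, taking every annotated exon between the ends as included, was 618 against 586 bases, and the median distance from acceptor to donor in the genome was 23678.5 against 11062 bases. Hosts with exactly 2 circles were in part closer, with 7.30% of circles over 10 exons, a median of 4 exons, 7.30% single-exon circles, a median spliced length of 624.5 bases and a genomic distance of 15643 bases. These are descriptions with no test, since circles of a host share its exons and introns.

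The ends lay on inner exons, in these hosts and nearly always in the others. None of the 405 circles began at exon 1 or ended at the last exon, against 1 and 2 of 871 from hosts with 1 or 2 circles. Exon 2 was the start of 128 (31.6%), against 40.5% of circles from hosts with 1 or 2 circles. The intron before the acceptor had a median length of 16407 bases (14882.5 in the other hosts) and the intron after the donor 16966 bases (12653). Circles that lay wholly in coding sequence numbered 308 (76.0%, against 72.4%), and 119 of these (38.6%) had a length divisible by 3, against 35.7%. Median GC content was 46.2% and 46.8%.

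**Figure D1:**
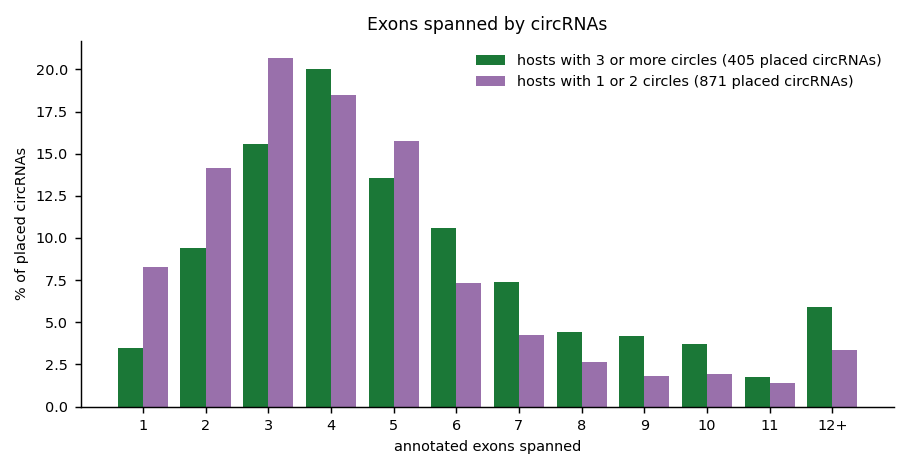
Share of placed circRNAs (y axis, percent) by the number of annotated exons spanned (x axis), for 405 circRNAs of hosts with 3 or more circles and 871 of hosts with 1 or 2 circles. Bars at 1 to 3 exons are lower for hosts with 3 or more circles, and bars at 6 or more exons are higher.

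The longest chain of exons belonged to Myo9a, an unconventional myosin. Myo9a-3 joined exons 7 to 43, 37 exons and 6280 bases, with 26 reads, and it shared its acceptor with the more abundant Myo9a-1 of exons 7 to 16, which had 181 reads. Rims1, an active zone scaffold, gave a circle of 27 exons (Rims1-6, exons 6 to 32) with 15 reads. At the other extreme stood the circles made of exon 2 alone: Slc8a1-1 from the sodium-calcium exchanger gene (1830 bases, 579 reads), Kat6b-1 from a histone acetyltransferase gene (873 bases, 380 reads) and Fmn1-1 from a formin gene (1994 bases, 184 reads). The widest genomic span was that of Erc2-1, from another active zone gene, at chr14:28040343-28317314 with exons 13 to 19, 276972 bases and 260 reads.

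The paralogues Rims1 and Rims2 each gave an abundant circle of 3 exons and 516 bases, a pair singled out after their values were seen. Rims1-2 joined exons 30 to 32 (113, 167 and 236 bases) at chr1:22346293-22379540 and Rims2-1 joined exons 20 to 22 (101, 173 and 242 bases) at chr15:39566943-39616510. Over their whole length the sequences differed at 178 bases, an identity of 65.5%. Their junctions were as follows, with capitals as above.
Rims1-2: agctcagccagacagCGAGCTTAGTAGTGG
Rims2-1: aactcagccaaaccgGTGCTATGGATATAG
Rims1-2 had 24, 68 and 75 reads in contralateral 1, 2 and 3 and 34, 119 and 43 in ipsilateral 1, 2 and 3. Rims2-1 had 41, 80 and 76 and then 38, 115 and 70. Both were highest in ipsilateral 2, the deepest library, and the hemispheres overlapped. The raw reads of both were lower in every library of low mt-Rnr1 than in every library of high. The most abundant circle of Rims1, Rims1-1, had the donor of Rims1-2 and began in an intron by the file's annotation, with 395 reads.

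A host usually had 1 leading circle, but seldom one that excluded the others. The most abundant circle held a median of 51.0% of its host's back-splice reads (quartiles 41.6% and 61.7%, range 21.5% to 85.3%), over 50% in 57 hosts and over 80% in 3. The inverse Simpson index, which gives the number of equally used circles that would have the same evenness, had a median of 2.72. In 45 of 108 hosts (41.7%) the same circle was the sole leader in each of the 6 libraries. Among the 66 hosts with a mean of at least 30 reads per library, this was so in 35 (53.0%). In the 81 hosts with every circle placed, the leader had the fewest exons in 23, the most in 16 and an intermediate number in 42.

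Among hosts with that depth, use was most uneven in Ankrd12, whose protein recruits histone deacetylases. Ankrd12-1 (exons 2 to 8) had 92, 132 and 131 reads in contralateral 1, 2 and 3 and 109, 207 and 134 in ipsilateral 1, 2 and 3, which was 85.7% ± 2.08 (SD, n = 6) of the host's reads. Next came Rbm4, a splicing regulator, with 82.9% ± 4.30 in its leader, Ssbp2, a single-stranded DNA binding protein, with 81.6% ± 5.99, Slc8a1 with 79.5% ± 5.49 (SD, n = 6 each). Homer1, whose protein scaffolds metabotropic glutamate receptors, followed with 3 circles led by Homer1-1 of exons 2 to 5. The reads of Homer1-1 were 30, 55 and 61 contralateral and 25, 74 and 49 ipsilateral, 77.1% ± 3.26 of the host (SD, n = 6). The zinc finger gene Zfp532 had 76.7% ± 6.86 in its leader (SD, n = 6).

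At the even end, the leading circle held far less. It had 22.2% ± 4.48 in Mlip (muscular lamin-interacting protein), 22.7% ± 8.19 in Arhgap10, 23.2% ± 7.91 in Malat1, 23.9% ± 6.89 in Agtpbp1 and 26.5% ± 9.25 in Ptk2, the focal adhesion kinase (SD, n = 6 each). Mlip-1 (exons 5 to 11) had 198 reads and Mlip-2 (exons 6 to 11) 178, with the donor in common. The leading circle of each of these 5 hosts was the sole leader in 3 or fewer of the 6 libraries.

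The host with the most reads was Atxn1, which encodes a transcriptional regulator expanded in a spinocerebellar ataxia. Atxn1-1 (exons 2 to 4) had 115, 135 and 149 reads in contralateral 1, 2 and 3 and 103, 309 and 206 in ipsilateral 1, 2 and 3. Atxn1-2 (exons 2 to 6) had 55, 67 and 79 and then 48, 98 and 85, and Atxn1-3 (exons 2 to 5) had 67, 47 and 57 and then 38, 63 and 78. Atxn1-1 was the highest in each library, and Atxn1-3 exceeded Atxn1-2 in contralateral 1 alone. In Kcnt2 the first circle led the second in each library, with 45.7% ± 2.78 for Kcnt2-1 (69, 111 and 113 reads contralateral, 66, 147 and 99 ipsilateral) and 35.5% ± 3.87 for Kcnt2-2 (47, 90 and 80, then 65, 111 and 74; SD, n = 6 each). Strbp, an RNA-binding protein gene, had 7 circles with 67.1% ± 2.99 in Strbp-1, and 6 of them shared an acceptor.

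**Figure D2:**
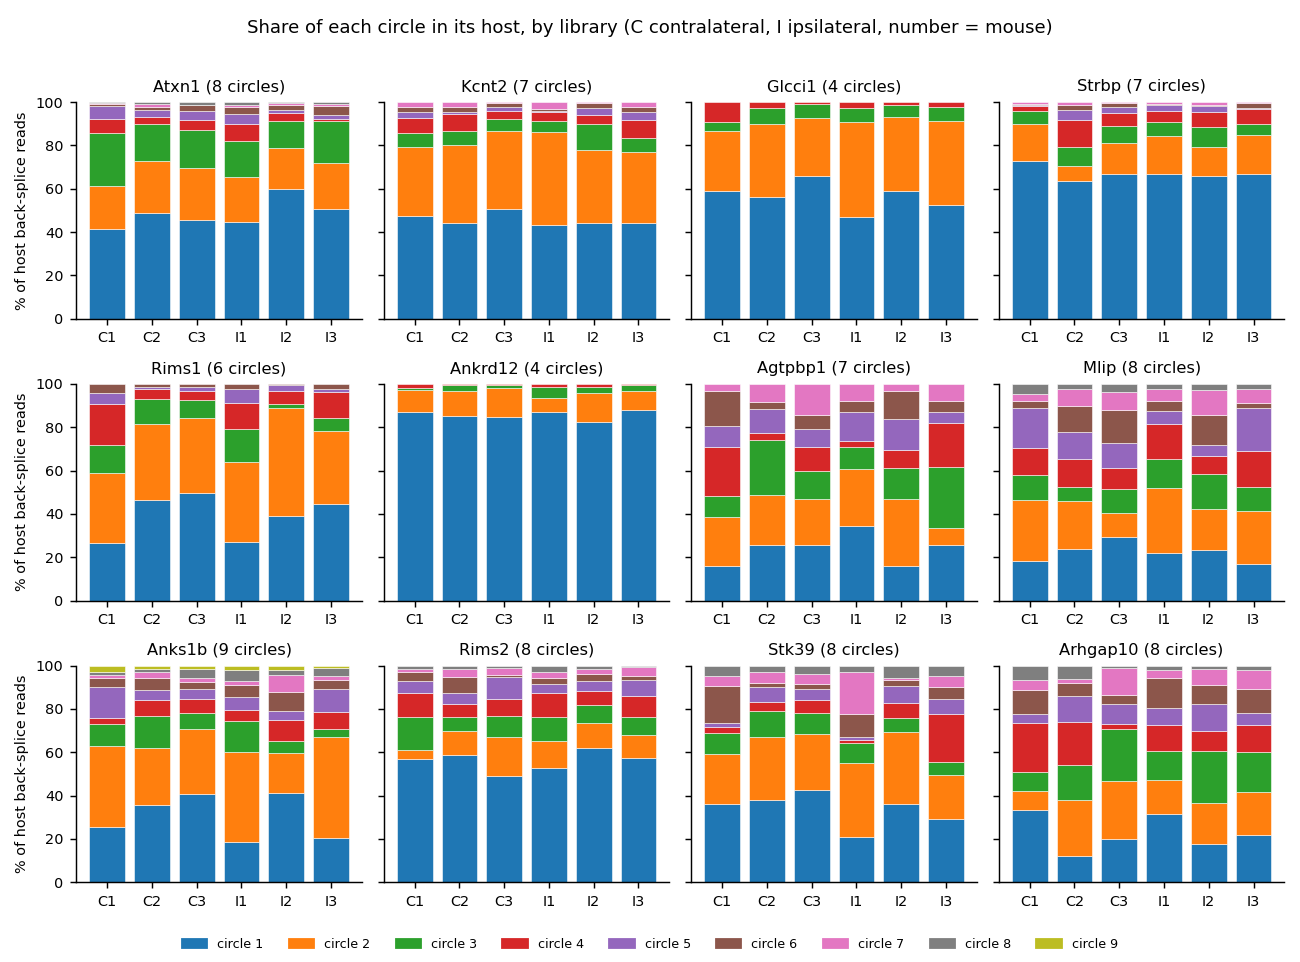
Share of each circle in its host's back-splice reads (y axis, percent) in each library (x axis) for 12 hosts with many circles or many reads, C for contralateral and I for ipsilateral with the mouse number. The leading circle of Ankrd12 takes over 80% of every bar, while that of Mlip takes 22.2% on average.

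Shares within a host were also compared between the mt-Rnr1 sets, a comparison made after the values were seen. Shares of 36 of the 456 circRNAs (7.89%) were higher in all 3 libraries of high mt-Rnr1 than in all 3 of low, against 6.58% of the 760 circRNAs in hosts with 2 or more circles, and 39 (8.55%) were lower, against 6.97%. Split by hemisphere, the contralateral shares were all higher for 20 (4.39%, against 4.61%) and all lower for 17 (3.73%, against 4.21%). The 760 include the 456, which draws the percentages together, and hosts with exactly 2 circles are not shown apart. The members' percentages were above those of the 760 in the mt-Rnr1 split and below them in the split by hemisphere. The circles named next were picked because their shares separated the mt-Rnr1 sets. Rasa2-1, from a Ras GTPase-activating protein gene, held 50.7%, 54.1% and 59.4% of its host in the 3 libraries of low mt-Rnr1 and 74.6%, 84.4% and 82.7% in those of high. Anks1b-1 held 21.5% ± 3.80 in the low and 39.2% ± 2.93 in the high libraries, and Anks1b-2, with the same donor, 41.9% ± 4.73 and 24.9% ± 5.93 (SD, n = 3 each). Nbea-1 (exons 2 to 8) of the neurobeachin gene had 20.5% ± 11.2 against 63.2% ± 12.4. Whatever set mt-Rnr1 apart, its part in these shares was not tested.

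In 4 pairs of circles outside Malat1 the donor was the same and the acceptors lay 3 bases apart, the spacing of tandem acceptor sites. This was noticed in the data. Anks1b-4 with 61 reads and Anks1b-7 with 31 differ in this way, and the sequence of the latter has 3 more bases at the start of its capitals.
Anks1b-4: actgcctttgatgtgTCGTCTGTCTGTGAA
Anks1b-7: actgcctttgatgtgCAGTCGTCTGTCTGT
The rarer form held 33.7% of the pair in Anks1b and 36.7% in Fmn1 (61 against 105 reads). Atxn1 had the lower shares, 4.78% (51 against 1017 reads) for the donor of exon 4 and 4.64% (21 against 432) for that of exon 6, which use the same pair of acceptors. The more abundant form was higher in each of the 6 libraries in the pairs of Anks1b and Atxn1 and in 5 of 6 in that of Fmn1.

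Malat1, a long noncoding RNA of nuclear speckles at chr19:5795690-5802672 on the minus strand, had 13 circles unlike the rest. They spanned 83 to 226 bases, all inside a window of 969 bases (chr19:5801468-5802436), and had 661 reads, 1.81% of the reads of the 456 circRNAs. None had AG before its start and GT after its end, the bases that mark splice sites, and each had a direct repeat of 4 to 11 bases (median 8) at both ends. In the windows below the repeat is in capitals, and each reads 5′ to 3′ on the strand of Malat1.
Malat1-1, start: attgaggcCAAAAGGttggataagatataa
Malat1-1, end: cttgatgaCAAAAGGacttttgataacagt
Malat1-2, start: atttggAGAAAGAAGattagaaaatggaag
Malat1-2, end: gaagatAGAAAGAAGcaagatagaaaaaca
In 3 pairs of these calls the circular sequence was the same read from another point, shifted by the length of the repeat, so that 13 calls gave 10 distinct sequences. The file's junction type code was 0 for each, a code it does not define. Outside Malat1 and Gm5815, 3 members also had it, as did 24 of the 989 circRNAs from hosts with 1 or 2 circles. Malat1-1 had 155 reads and Malat1-2 117.

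Gm5815 is a processed pseudogene on chromosome 17, and its 3 circles cannot be told from those of Glcci1 with certainty. They measured 353, 506 and 717 bases, the lengths of Glcci1-3, Glcci1-2 and Glcci1-1, from which they differed at 2, 3 and 7 bases (99.4%, 99.4% and 99.0% identity). Gm5815 took 22.3%, 24.8% and 21.6% of the reads of each pair, 21, 132 and 192 against 73, 400 and 698. How reads were divided between such copies is not given in the sources used here, so both hosts' values are uncertain.

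Circular output relative to the host gene was given as back-splice reads per 1000 host gene reads and, to compare hosts, as back-splice reads divided by host reads per kb of exon. Host reads can include reads from inside circles. The median host with 3 or more circles had 10.5 back-splice reads per 1000 host reads, against 5.36 for 2 circles and 3.18 for 1 circle. Per kb the medians were 0.0941, 0.0477 and 0.0233, and with the leading circle alone 0.04999, 0.0295 and 0.0233 (n = 108, 151 and 676). The median host level was also in this order, at 186, 120 and 84.2 CPM. More circles give a larger sum by construction, so the comparison is a description.

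Glcci1 had the highest ratio, 7.14 ± 2.55 per kb (SD, n = 6). Per 1000 host reads it had 595, 811 and 1320 back-splice reads in contralateral 1, 2 and 3 and 627, 1333 and 834 in ipsilateral 1, 2 and 3. The libraries of high mt-Rnr1 included the 2 highest, and the hemispheres overlapped. Only 177 to 258 reads were counted for this gene in a library, its host entry also names Gm45062, and how reads in overlapping genes were assigned is not given in the sources used here. Rbm4, whose entry also names Gm21992, followed with 1.32 ± 0.215, then Gm5815 with 1.23 ± 0.223 and Rasa2 with 1.13 ± 0.325. Among the lowest were Malat1 with 0.0033 ± 0.0007, Psd3, an exchange factor for Arf GTPases, with 0.0237 ± 0.0118, and Dlg1, a synaptic scaffold, with 0.0393 ± 0.0104 (SD, n = 6 each, in hosts with at least 30 reads per library on average).

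**Figure D3:**
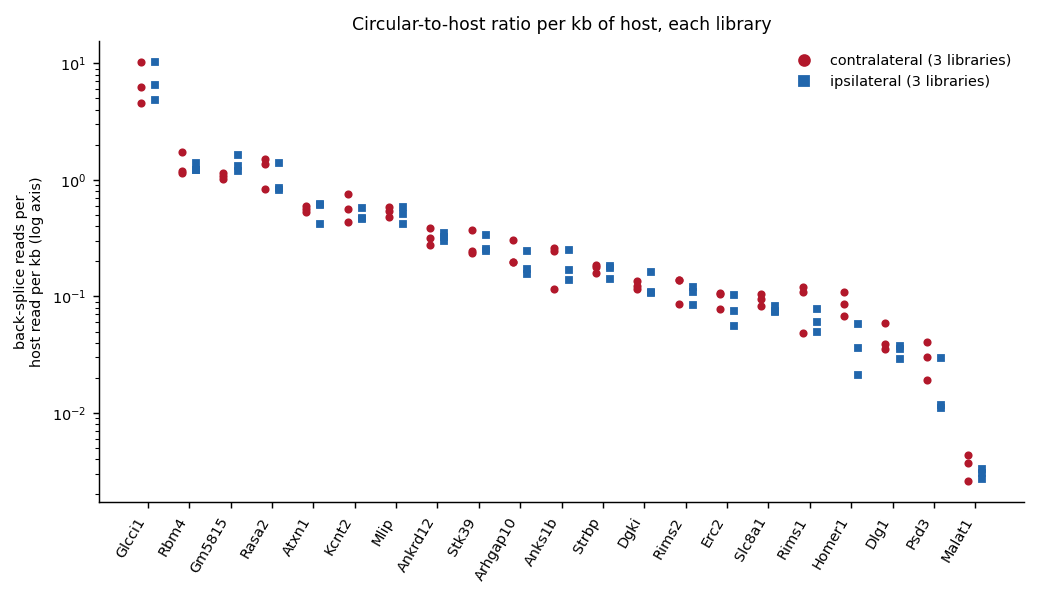
Back-splice reads per host read per kb of exon (y axis, log scale) in each of the 6 libraries for 21 hosts ordered by their mean, with contralateral libraries as circles and ipsilateral ones as squares. Values run from Glcci1, near 7, to Malat1, near 0.0033, and the hemispheres overlap in most hosts.

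Between contralateral and ipsilateral V1, no circRNA of these hosts passed the test for a difference in level. In edgeR's quasi-likelihood test over 1468 circRNAs, 0% passed an adjusted p of 0.05, and the same count, 0, was found with DESeq2. At an unadjusted p of 0.05 the share was 3.54% (52 circRNAs), and 17 of 452 tested members (3.76%), near that background. The smallest adjusted p was 0.999 and the members' median log2 difference, contralateral against ipsilateral, was -0.02. CPM of circRNAs were taken on the library's back-splice total, with TMM scaling. Of the 456, 19 (4.17%, against 3.97% of all circRNAs) had every contralateral CPM below every ipsilateral one and 18 (3.95%, against 4.23%) above. Leaving out ipsilateral 2 brought 1 member past the threshold, Nbea-1 (10, 33 and 44 reads in contralateral 1, 2 and 3, and 3, 60 and 7 in ipsilateral 1, 2 and 3), with a log2 difference of 2.40 and an adjusted p of 0.0114 in edgeR's test. Nbea-1 had 3 to 10 reads in the libraries of low mt-Rnr1 and 33 to 60 in those of high, and both ipsilateral libraries in that fit were low. The part of mt-Rnr1 in this call was not tested.

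The circRNAs with the smallest unadjusted p were of low count. Atad2b-2, of a bromodomain gene, had 1, 2 and 1 reads in contralateral 1, 2 and 3 and 8, 14 and 2 in ipsilateral 1, 2 and 3 (log2 -2.26). Dgki-8 had 2, 6 and 5 and then 1, 1 and 1 (log2 2.16). Dtna-1, of the dystrobrevin alpha gene, had 3, 5 and 7 and then 11, 17 and 17 (log2 -1.40), and it was the only one of these 3 whose raw counts separated the hemispheres with all counts above 2. Malat1-2 had 9, 37 and 33 and then 9, 20 and 9 (log2 1.23), with 9 reads in each library of low mt-Rnr1 and 20 or more in each of high, and within the low libraries its difference was 0.25. Egfem1-2 had 1, 13 and 24 and then 2, 9 and 4 (log2 1.49), and within the libraries of low mt-Rnr1 its difference was -1.23.

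**Figure D4:**
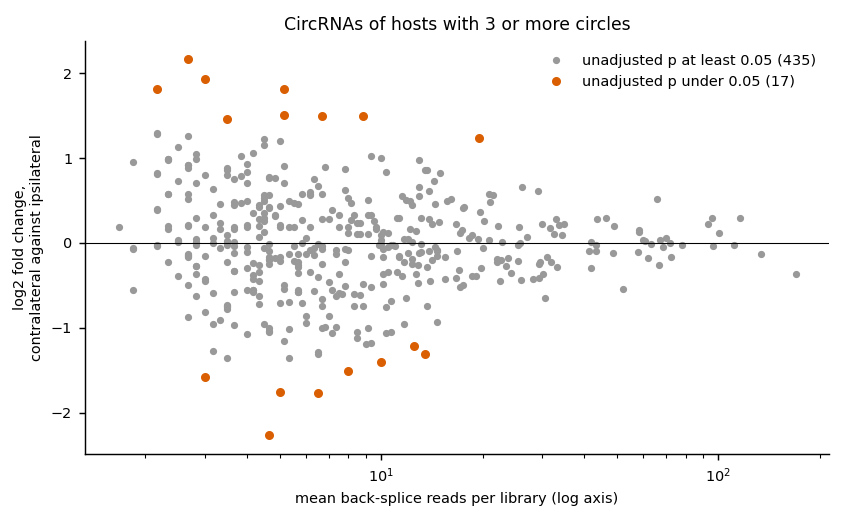
Log2 difference of contralateral against ipsilateral V1 (y axis) against mean back-splice reads per library (x axis, log scale) for the 452 circRNAs of these hosts that were tested. The 17 circRNAs with an unadjusted p under 0.05 have fewer than 20 reads per library, and the spread narrows as reads increase.

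Depth limited what could be seen. The median standard error of the log2 difference was 0.72 for the 162 circRNAs with fewer than 5 reads per library, 0.61 for 218 with 5 to 20 and 0.35 for 72 with 20 or more. A difference of 2 standard errors was therefore 2.73-fold, 2.34-fold and 1.62-fold.

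The use of circles within a host did not pass the test in any host either. With edgeR's diffSpliceDGE, 0% of 258 hosts with 2 or more tested circles passed an adjusted p of 0.05. At an unadjusted p the share was 5.04%, and 6 of the 108 hosts with 3 or more circles. Sipa1l1, a Rap GTPase-activating protein of the postsynaptic density, had the smallest p, 0.00117 (edgeR, adjusted p 0.302). Sipa1l1-1 had 8, 5 and 8 reads in contralateral 1, 2 and 3 and 12, 21 and 27 in ipsilateral 1, 2 and 3, and Sipa1l1-2 had 4, 2 and 2 and then 8, 6 and 17, whereas Sipa1l1-3 had 4, 4 and 2 and then 1, 1 and 1. All 3 separated the hemispheres in raw counts, with Sipa1l1-3 higher and the others lower in contralateral libraries, at counts of 27 or fewer. Per circle, 0% of 752 passed the adjusted threshold and 1.33% the unadjusted one, 7 of them members. The smallest p was that of Sipa1l1-3, with a log2 difference relative to its host's circles of 2.01 (SE 0.55, edgeR adjusted p 0.478). The median share of the leading circle was 52.1%, 49.4% and 50% in contralateral 1, 2 and 3 and 53.3%, 54.1% and 50% in ipsilateral 1, 2 and 3, and the means of 50.5% ± 1.46 and 52.4% ± 2.16 (SD, n = 3 each) had an exact permutation p of 0.3.

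Nor did any circular-to-host ratio pass. In limma on log2 of the ratio with 0.5 added to both counts, 0% of 1434 circRNAs and 0% of 935 hosts had an adjusted p under 0.05. At the unadjusted threshold the shares were 3.91% of circRNAs (14 members) and 3.96% of hosts (3 members: Homer1, Cdk8 and Btaf1). Homer1 had 5.63, 9.12 and 7.23 back-splice reads per 1000 host reads in contralateral 1, 2 and 3 and 1.78, 4.82 and 3.01 in ipsilateral 1, 2 and 3, a log2 difference of 1.28 (SE 0.51, limma adjusted p 0.959). Btaf1, a regulator of the TATA-binding protein, had 17.5, 17.3 and 16.4 and then 7.46, 11.2 and 9.41. In both hosts each contralateral library lay above each ipsilateral one. This held for 9 of the 108 hosts, against 5.45% of all hosts, and the reverse for 3, against 2.89%. The mean ratio was higher in contralateral V1 in 72 of 108 hosts, and the median log2 difference was 0.12 in these hosts and 0.13 over all 935. Its direction was not stable: within the libraries of low mt-Rnr1 it was -0.07 in these hosts (-0.02 over all), and without contralateral 2 it was -0.0052 (0.05 over all). It was 0.26 without contralateral 1, 0.21 without ipsilateral 2, 0.07 without contralateral 3, 0.06 without ipsilateral 1, 0.07 within high mt-Rnr1 and 0.04 with TMM scaling of both counts.

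Of the 105 host genes, 1 passed at the level of the gene, against 0.127% of 20473 genes. At an unadjusted p under 0.05 there were 5 (4.76%), against 6.15% of all genes. Homer1 was lower in contralateral V1, with 411 ± 74.8 CPM against 828 ± 117 (SD, n = 3 each; log2 -1.01, SE 0.17, edgeR adjusted p 0.0416). The circle Homer1-1 had a log2 difference of 0.20 (SE 0.30, edgeR adjusted p 0.999). Homer1's call was lost on leaving out contralateral 1 (adjusted p 0.1003), contralateral 2 (0.336), ipsilateral 2 (0.0575) or ipsilateral 3 (0.112), each in edgeR's test. With the mouse as a block 2 host genes passed, Homer1 and Elavl2, a neuronal RNA-binding protein (log2 -0.50, edgeR adjusted p 0.0171).

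Host genes were also set against 8 lists of gene classes, written with earlier results of these data known. The active zone list held 4 of these hosts among its 21 genes (Rims1, Rims2, Erc2 and Syt1) with 23 circles and 2178 reads. Postsynaptic scaffolds and adhesion molecules held 8 of 27 (among them Anks1b, Dlg1, Dlgap1, Homer1 and Magi2) with 35 circles and 2544 reads, and kinases, phosphatases and GTPase regulators 8 of 44 (among them Arhgap10, Arhgap32, Cdk8, Dgki and Ptk2) with 42 circles and 3033 reads. Receptors, channels and transporters held 3 of 35 (Grm7, Ryr2 and Slc8a1), the cytoskeleton list 2 of 30 (Dock4 and Myo9a), chromatin 1 of 42 (Rere), RNA binding 1 of 20 (Elavl2) and the ubiquitin system 0 of 26. In this order of the 8 lists, 12, 12, 23, 18, 9, 21, 5 and 10 genes had any circle. Among all 945 host entries, 108 had 3 or more circles. These counts are descriptions, and enrichment of a list was not tested. No circle of any list passed the test between hemispheres. The median log2 difference of the tested circles was 0.11 in the active zone list (22 circles), -0.10 in the postsynaptic list (35) and -0.07 in the kinase list (42), beside -0.02 over all circRNAs tested. The lists hold 27 of the 105 host genes. Of 26 genes with a part in circRNA formation or turnover, 0 passed edgeR's test and 1 had an unadjusted p under 0.05, Nova1, a neuronal splicing factor (log2 -0.33, p of 0.0145, edgeR adjusted p 0.732).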

How the data were processed

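For each circRNA the authors deposited a raw count of reads across its back-splice, with its position, strand, host and junction type, and for each Ensembl gene a raw read count, per the file headers. The deposited normalized circRNA signal equals the raw counts after quantile normalization for 1488 of 1488 values in each library, compared to 3 decimals, and served only as an alternative. The submitters' processing notes list the build GRCm38 and the tools HISAT2, featureCounts, DESeq2 and limma but no version. Which program called circRNAs, with which filters, strand setting and annotation, is not given in the sources used here. Each circRNA had at least 1 read in each library (median 6), so a circRNA absent from any library is not analysed here.

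The members and lists were chosen with earlier results of these data known. Exons, gene bounds and sequences came from GENCODE M21, in which 147 gene IDs had no entry. A circle was placed when both ends were exon ends of 1 transcript. Where several transcripts matched, the one with the most exons was taken. CircRNAs with at least 2 reads in 3 libraries (1468) and genes passing filterByExpr (minimum count 10, total 15) were compared with edgeR's quasi-likelihood test and TMM scaling, use within hosts with diffSpliceDGE, and log2 ratios with limma, all with Benjamini-Hochberg adjustment over every feature. Software was R 4.3.3, edgeR 4.0.16, limma 3.58.1, DESeq2 1.42.0, Python 3.11.15, scipy 1.17.1 and matplotlib 3.10.9. Scripts were tested on simulated data. Single values used exact permutation of 3 against 3 libraries.

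By their titles, libraries with the same number are hemispheres of 1 mouse, which pairs the samples. Within mice, deviations from the hemisphere means had correlations of 0.406, 0.0737 and 0.158 for genes and 0.139, 0.0114 and 0.0129 for circRNAs. The main fits had no block. Their p-values measure the spread between the 3 libraries of a hemisphere, 1 per mouse, and leave the pairing out. Only the fits with the mouse as a block use the spread of differences within mice. In each mt-Rnr1 set, 1 hemisphere had 1 library, so fits within a set do not measure a spread between mice in both hemispheres. Libraries were no duplicates: correlations of log2 circRNA CPM lay between 0.634 and 0.744. No molecular identifiers were used, and intervals cover counting error only.

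Some hosts that the naming rule takes are not reported here. Named were the hosts with the most circles and the most reads, the members with the smallest p in each test, the extremes of leading share, exon span and ratio, the most read hosts of each list, and hosts at the edge of the rule. Homer1-1, Nbea-1 and the circles said to be noticed in the data were added after their values were seen. Alternatives were leaving out each library or each mouse, the mouse as a block, either set of mt-Rnr1, other scalings and filters, DESeq2, and other minimum numbers of circles.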

Additional observations from a re-analysis of the deposited data

How the results depend on the processing

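Counts of member circRNAs, hosts and ratios past an adjusted p of 0.05 were 0 under each alternative run, except that the circRNA level test ranged from 0 to 1 when each library was left out in turn. With the replicate block (the mouse as a term), 0 circRNAs, 0 hosts in usage and 0 ratios passed, and 2 host genes in place of 1, out of 183 genes in place of 26. The count of host genes ranged from 0 to 1 when each library was left out, and was 0 within the libraries of high mt-Rnr1 and 0, 0 and 0 without mouse 1, 2 and 3. The contralateral minus ipsilateral difference in the members' share of reads was 0.37 percentage points. It was -0.0496 for hosts with 4 or more circles and ranged from -0.357 to 1.34 when each library was left out, with a sign-flip p of 1.0 over pairs of hemispheres (exact, smallest possible 0.25). The difference in the leading circle's median share was -1.94 points. It was 0.467 over hosts with at least 30 reads per library, and its exact sign-flip p over the pairing was 0.5. Over 566 alternatives of 37 named circles, hosts and genes, 1 changed sign, Egfem1-2 within low mt-Rnr1 (-1.23), and Homer1's gene call was lost in 8. The cause was not tested. Tests of use per host have no sign and could not change it. Most other items were picked for a small p in these same libraries, which makes a change of sign unlikely, so this count does not measure stability. Leaving out each mouse was chosen after seeing the data. The median of 5 exons per circle was the same with 2 bases of tolerance and with the longest matching transcript. Neither way favours transcripts with fewer exons, so this cannot show how far the median depends on taking the transcript with the most exons. Depth limits the rest: most members had fewer than 20 reads per library.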
